A study of Homo sapiens with 6 samples.

Results

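The DNA replication and G1/S genes described here are 47 genes that license replication origins, unwind and copy DNA, supply nucleotides, or control the step from G1 into S phase. Their members were chosen by gene symbol, and the array measured all 47 with 75 of its 22215 probe sets that are not controls, 26 genes by 1 probe set and 21 by several. A probe set is a group of short probes read together as 1 value for a transcript. SUM-159 is a triple negative breast cancer (TNBC) cell line, which lacks estrogen receptor, progesterone receptor and HER2. The cells were stably transfected either with empty vector or with SH3GL2, which encodes endophilin A1, a membrane-bending protein of endocytosis. Both groups carried a pcDNA 3.1 plasmid and were cultured with G418, so the vector and the drug selection were shared, and the groups differed in the SH3GL2 insert. Each group was its own stable transfection, so the insert and any other difference between the transfected lines cannot be told apart. Each group had 3 arrays, and the sources used here do not say whether the arrays came from separate cultures, or whether the transfected cells were 1 clone or a pool. The p-values therefore measure only the spread between these arrays, which may be technical.

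Before S phase, the origin recognition complex, CDC6 and CDT1 load a ring of MCM2 to MCM7 onto DNA, and CDC45 and the GINS complex turn that ring into the active helicase. Cyclin-dependent kinases 4 and 2, with D- and E-type cyclins, release the E2F factors, which switch on most of the genes in this group once per cell cycle. Proliferating tumor cells usually hold these transcripts at high levels, and MCM2 and PCNA are widely used as proliferation markers. In RNA from a whole culture, fewer cells in S phase and less RNA per cell cannot be told apart.

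All values are log2 signals as deposited, so a difference of 1 is a change of 2-fold, and every difference is SH3GL2 minus empty vector. Array medians lay between 6.97 and 7.02, and the correlation of arrays was 0.9971 to 0.9982 within groups and 0.9947 to 0.9965 between them. The level of transcripts that should be absent was gauged from 78 probe sets of 50 genes of other organs, whose means over the 6 arrays had a median of 4.79 and reached 6.93 at the 95th percentile. The SH3GL2 probe set itself averaged 3.22 with empty vector and 3.26 with SH3GL2 (adjusted p = 0.909, limma), under that median in both groups, so it could not check the labels. Of the mesenchymal markers VIM, CD44, FN1 and CDH2, 15 of 17 probe sets lay above the 95th percentile, while 1 of 12 did for ESR1, PGR and ERBB2. That was an ERBB2 probe set, at 8.50 with empty vector and 8.45 with SH3GL2. The other ERBB2 probe set, at 5.33 and 5.32, was under the 95th percentile. Of the luminal epithelial markers, which mesenchymal-like lines usually hold low, 3 of 10 probe sets were above it, those of KRT18, KRT8 and 1 of 3 of GATA3, with KRT18 at a highest group mean of 11.98, while CDH1, EPCAM and KRT19 were under the reference median. Leukocyte and endothelial markers were above it on 0 of 5 and 0 of 7 probe sets.

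The replication genes were well expressed and differed little between the groups. Each of the 47 genes had at least 1 probe set above the 95th percentile of the reference genes, and 71 of the 75 probe sets lay above it by the higher group mean. In the limma test, with adjustment over all 22215 probe sets, MCM2 and RFC4 rose with SH3GL2, which is 2 of 75 probe sets or 2.67%. The same test called 1.99% of all probe sets higher and 2.18% lower, so the share of members that rose was near that of the whole array. The limma test called 0 members lower, with 1 member lower at an unadjusted p under 0.05, or 1.33% against 7.62% of all probe sets. Analysis of variance also called 0 lower. In simulated data it recovered only 6% of 1.5-fold changes, so that 0 says little. A further count at the unadjusted threshold gave 12 members higher, or 16% against 8.24% of all probe sets. The 3 values of each group did not overlap, with SH3GL2 above, at 15 member probe sets (20%), and with SH3GL2 below at 3 (4%). Over all probe sets these shares were 10.5% above and 8.97% below.

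**Figure D1:**
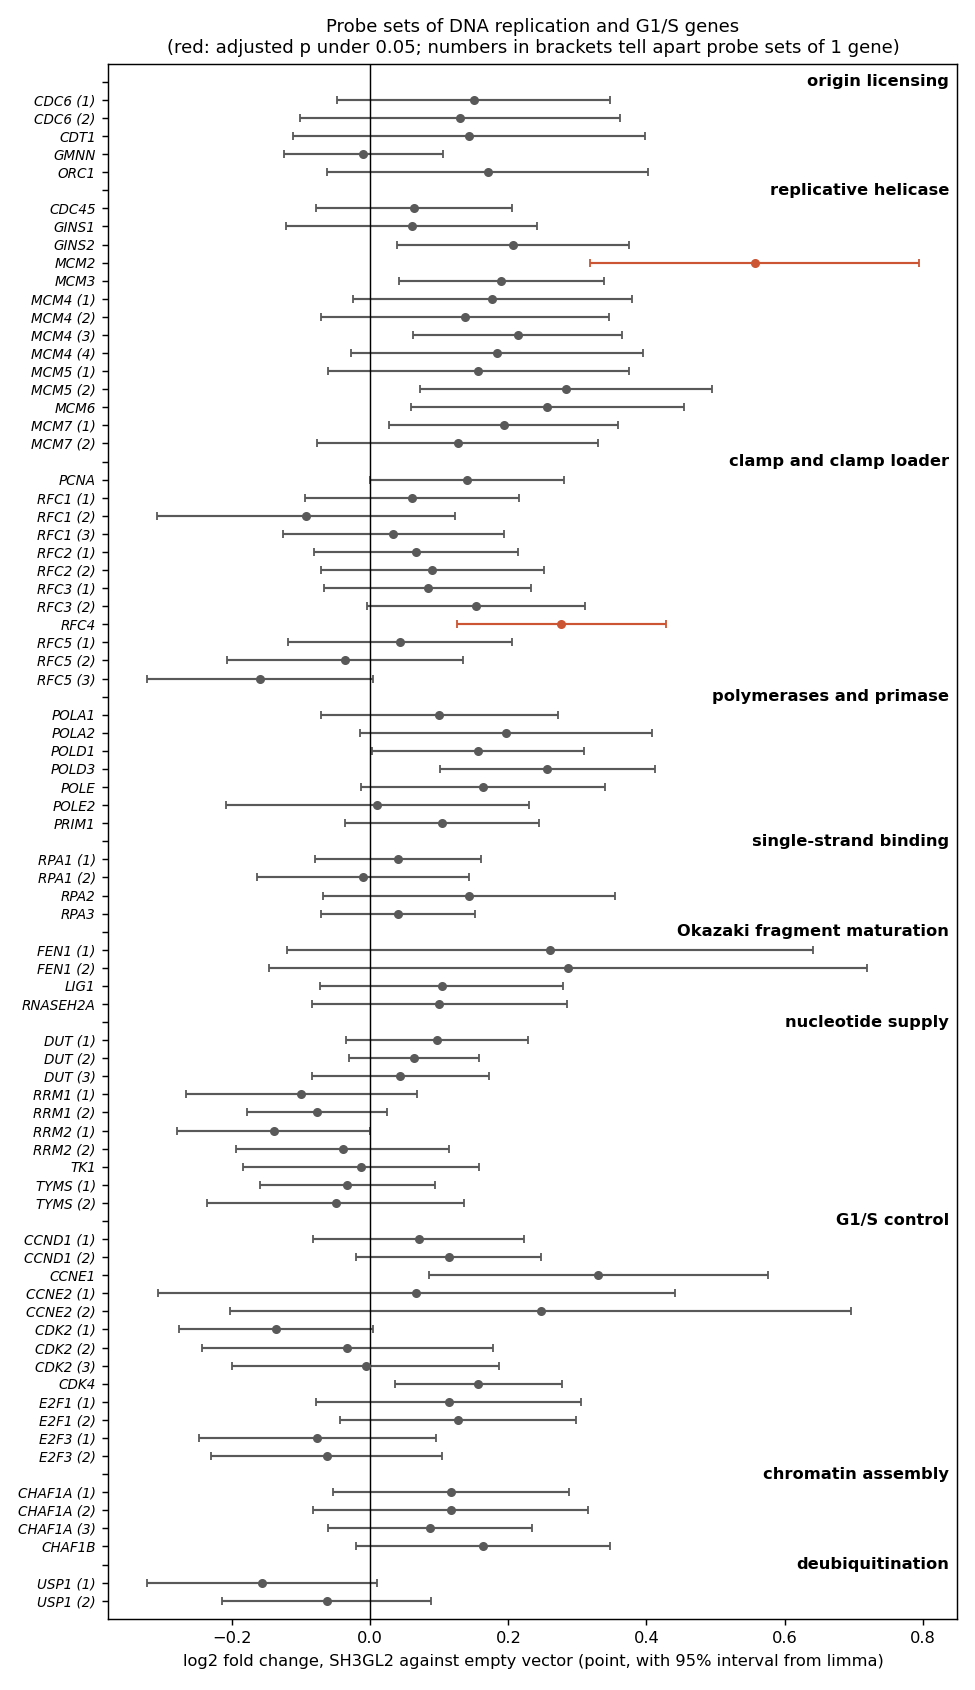
Log2 fold change (horizontal axis, SH3GL2 against empty vector) of each of the 75 probe sets, grouped by role, with the 95% interval from limma (n = 3 arrays per group). The probe sets of MCM2 and RFC4, in red, passed an adjusted p of 0.05, and most of the other intervals include 0.

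Differences over the 75 probe sets ran from -0.16 to 0.56, with a median of 0.10, against a median of 0.01 over all probe sets. They were above 0 at 56 member probe sets (74.7%), against 52.8% of all. Of the 73 probe sets that did not pass, 70 had a 95% interval lying wholly within a 1.5-fold change in either direction. The interval reached further for 1 probe set of CCNE2 and both of FEN1. Among the 21 genes with several probe sets, 12 had only positive differences, 6 only negative ones and 3 both.

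The replicative helicase stood highest among the roles with more than 4 probe sets. All 14 probe sets of its 9 genes had a positive difference, with a median of 0.19, and 1 of them passed the test. MCM2, a subunit of the MCM ring that bears a histone-binding tail, was measured by 1 probe set. It read 9.81, 9.77 and 9.80 on the empty vector arrays and 10.14, 10.68 and 10.23 on the SH3GL2 arrays. All SH3GL2 arrays were above all empty vector arrays, which lay close together, and SH3GL2 replicate 2 was the highest. The group means were 9.79 ± 0.02 and 10.35 ± 0.29 (SD, n = 3), a rise of 0.56 on the log2 scale or 1.47-fold (SE 0.11, 95% interval 0.32 to 0.79, limma adjusted p = 0.0112). Without SH3GL2 replicate 2 the rise was 0.39, with a limma adjusted p of 0.00252, and without empty vector replicate 2 the adjusted p was 0.0503. MCM2 also lost its call when low signals were floored at the reference median (adjusted p = 0.215), without the intensity trend in limma (0.0546) and by analysis of variance (0.314). The floor left the MCM2 values themselves as they were.

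The other subunits of the MCM ring did not pass the test, and MCM2 lay further above its own empty vector mean than any of them did on every SH3GL2 array. Measured from the empty vector mean, MCM2 lay 0.35, 0.89 and 0.44 higher on SH3GL2 replicates 1, 2 and 3. The next helicase member lay 0.22 higher on replicate 1 (MCM4), 0.51 on replicate 2 (MCM5) and 0.27 on replicate 3 (MCM5). No test of MCM2 against the other subunits was run.

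For MCM3 the values were 10.40, 10.45 and 10.49 with empty vector and 10.56, 10.78 and 10.57 with SH3GL2, a difference of 0.19 (limma adjusted p = 0.170). The brighter probe set of MCM5 read 8.84, 8.95 and 8.94, then 8.98, 9.42 and 9.18, a difference of 0.28 (adjusted p = 0.153, limma). On these probe sets the groups were separate, by a narrow margin on SH3GL2 replicate 1. The dimmer MCM5 probe set differed by 0.16 (adjusted p = 0.521, limma), with overlapping groups. MCM6 read 10.69, 11.06 and 10.89 with empty vector and 11.09, 11.30 and 11.02 with SH3GL2, a difference of 0.26 (limma adjusted p = 0.168). Here the groups overlapped, since SH3GL2 replicate 3 was under empty vector replicate 2. MCM4 had 4 probe sets with differences of 0.14 to 0.21, and the groups were separate on the brightest of them only. MCM7 had differences of 0.19 (adjusted p = 0.222, limma) and 0.13. Of the factors that activate the ring, GINS2 differed by 0.21 (limma adjusted p = 0.191), while GINS1 and CDC45 both differed by 0.06, the smallest values of the helicase group.

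**Figure D2:**
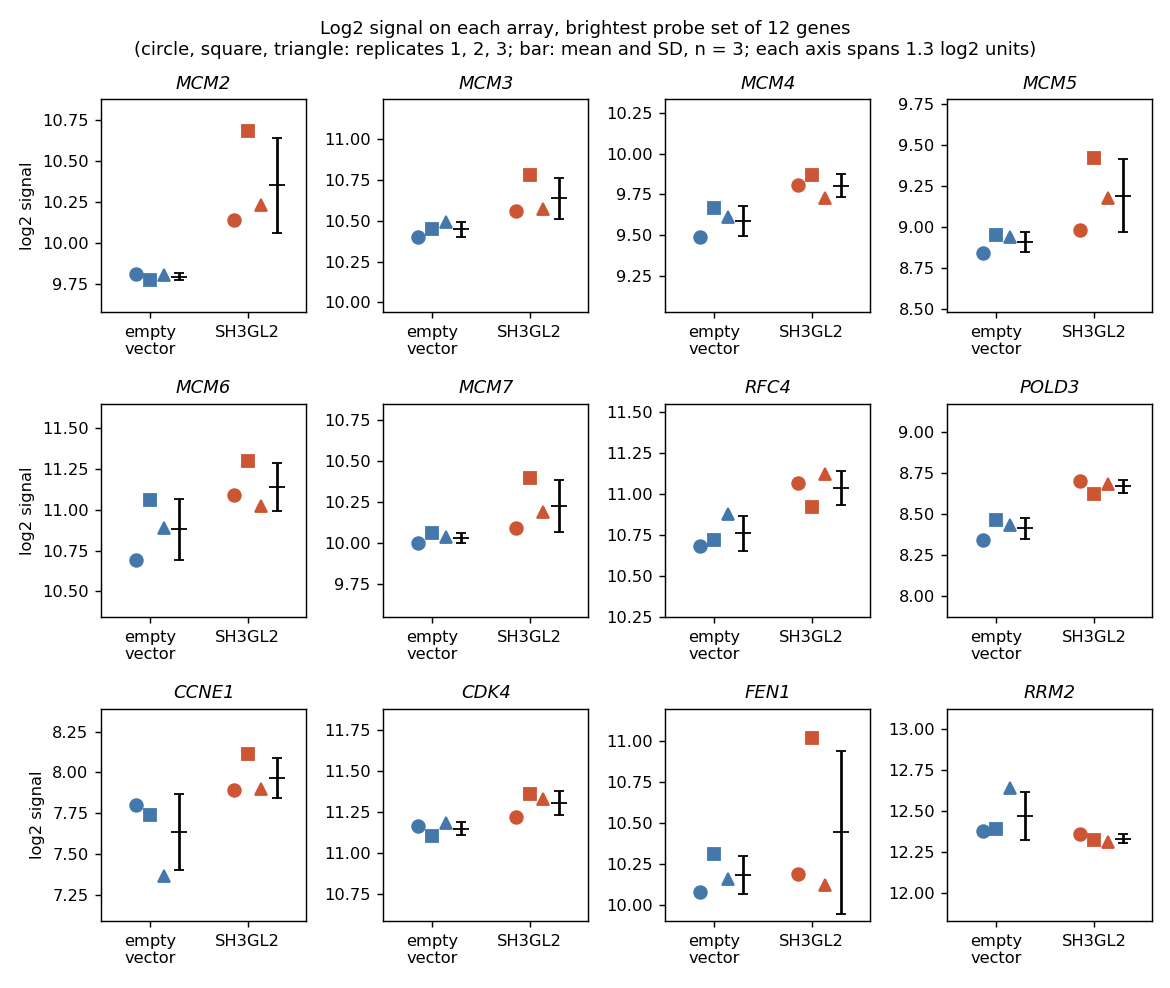
Log2 signal (vertical axis, each spanning 1.3 log2 units) on every array for the brightest probe set of 12 genes, with circle, square and triangle for replicates 1, 2 and 3 and bars for mean and SD (n = 3). MCM2 shows tight empty vector values under spread SH3GL2 values, and SH3GL2 replicate 2 is far above its group for FEN1 but the lowest of its group for RFC4.

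Promoters of 4 of these genes are shown because MCM2 and RFC4 passed the test and MCM3 and MCM6 are ring partners of MCM2 that did not. The sequences are from RefSeq on GRCh38.p14, run from 250 bases before to 50 bases after the annotated start, and read 5′ to 3′ along the gene. Capitals mark matches to an E2F motif, searched on both strands as TTTCCCGC, TTTCGCGC, TTTGCCGC or TTTGGCGC. Matches on opposite strands can overlap, and a run of 12 capitals holds 1 on each strand. MCM2 lies at chr3:127598161-127598460 on the plus strand, RFC4 at chr3:186806433-186806732, MCM6 at chr2:135876394-135876693 and MCM3 at chr6:52284693-52284992, these last 3 on the minus strand.
MCM2: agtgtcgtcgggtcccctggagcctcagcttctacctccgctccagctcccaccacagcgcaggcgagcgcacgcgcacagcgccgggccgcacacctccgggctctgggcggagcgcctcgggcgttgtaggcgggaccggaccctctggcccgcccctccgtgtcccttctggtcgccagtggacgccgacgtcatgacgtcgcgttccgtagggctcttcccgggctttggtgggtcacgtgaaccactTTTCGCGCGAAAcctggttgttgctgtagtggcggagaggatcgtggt
RFC4: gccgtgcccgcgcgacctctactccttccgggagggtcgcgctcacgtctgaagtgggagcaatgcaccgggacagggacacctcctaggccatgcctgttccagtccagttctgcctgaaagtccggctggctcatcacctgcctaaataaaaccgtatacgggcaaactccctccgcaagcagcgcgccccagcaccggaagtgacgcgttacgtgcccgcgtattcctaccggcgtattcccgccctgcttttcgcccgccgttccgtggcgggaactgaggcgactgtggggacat
MCM6: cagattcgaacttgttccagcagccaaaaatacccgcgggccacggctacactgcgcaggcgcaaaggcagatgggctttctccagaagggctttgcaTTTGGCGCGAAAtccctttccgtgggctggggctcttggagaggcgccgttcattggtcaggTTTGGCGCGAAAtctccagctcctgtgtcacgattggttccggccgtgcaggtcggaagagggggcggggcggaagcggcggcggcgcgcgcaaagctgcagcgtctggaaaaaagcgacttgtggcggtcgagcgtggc
MCM3: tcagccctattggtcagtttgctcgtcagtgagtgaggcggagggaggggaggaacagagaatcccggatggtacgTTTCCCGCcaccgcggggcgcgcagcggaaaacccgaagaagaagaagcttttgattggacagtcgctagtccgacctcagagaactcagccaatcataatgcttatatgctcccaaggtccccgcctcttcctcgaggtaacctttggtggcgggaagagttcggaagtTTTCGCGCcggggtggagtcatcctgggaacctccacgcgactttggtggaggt

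The MCM2 window held 1 such place, just after the start, and the MCM6 and MCM3 windows held 2 places each. None of the exact spellings searched occurred in the RFC4 window. Near matches, such as attcccgc in the RFC4 window, were not counted. A promoter was matched for 39 of the 47 genes, and at least 1 motif was present for 20 of them (51.3%). Counted by promoter this was 20 of 53 (37.7%), against 1164 of all 35116 promoters of the same length (3.31%). Among the helicase genes 6 of the 7 matched genes held the motif. Counted by gene, the share was 3.99% of all genes. It was 29.5% of other G1/S and replication genes and 10.8% of mitotic genes, lists that are described below. These matches are letters in a window and were not tested for binding. MCM4, MCM5, POLD3, RPA2, RPA3, CCND1, CCNE2 and CDK2 were not matched.

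Origin licensing had 5 probe sets in 4 genes, with a median difference of 0.14 and none past the test. ORC1, the largest subunit of the origin recognition complex, had the highest value at 0.17 (95% interval -0.06 to 0.40, limma adjusted p = 0.509). CDC6, which with ORC loads the helicase, differed by 0.15 and 0.13 on its 2 probe sets, and its partner CDT1 by 0.14. GMNN, the inhibitor of CDT1, was lowest at -0.01, with an interval of -0.13 to 0.11.

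PCNA, the ring-shaped clamp that holds polymerases on DNA, and the RFC1 to RFC5 loader that opens it were covered by 12 probe sets, with a median of 0.06. RFC4, a small subunit of the loader, was the other gene that rose. Its single probe set read 10.68, 10.72 and 10.88 with empty vector and 11.07, 10.92 and 11.12 with SH3GL2. The groups did not overlap, but the lowest SH3GL2 array, replicate 2, was only just above empty vector replicate 3. The means were 10.76 ± 0.11 and 11.04 ± 0.10 (SD, n = 3), a rise of 0.28 or 1.21-fold (SE 0.07, 95% interval 0.12 to 0.43, limma adjusted p = 0.0445). The call was lost without empty vector replicate 1 (adjusted p = 0.148), empty vector replicate 2 (0.173), SH3GL2 replicate 1 (0.119) or SH3GL2 replicate 3 (0.220). It was also lost with each array centred on its median (0.0846), with low signals floored (0.226), without the trend (0.149) and by analysis of variance (0.324).

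PCNA read 11.58, 11.68 and 11.66 with empty vector and 11.70, 11.93 and 11.71 with SH3GL2, a difference of 0.14 (limma adjusted p = 0.316). The groups were separate by 0.02. The other loader subunits ranged from -0.16 on 1 of 3 RFC5 probe sets to 0.15 on 1 of 2 RFC3 probe sets, and the remaining RFC5 probe sets gave 0.04 and -0.04. 1 probe set of RFC1 lay under the reference median.

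All 7 probe sets for the replicative polymerases and primase had positive differences, with a median of 0.16, and none passed. POLD3, an accessory subunit of polymerase delta, read 8.34, 8.46 and 8.43 with empty vector and 8.70, 8.62 and 8.68 with SH3GL2. Its groups were well separated, and its difference of 0.26 had the lowest adjusted p of the members that did not pass (0.0703, limma). The catalytic subunits of polymerases delta and epsilon, POLD1 and POLE, both differed by 0.16. POLA2 of the polymerase alpha complex differed by 0.20, POLA1 and the primase PRIM1 both by 0.10, and POLE2 was lowest at 0.01 (95% interval -0.21 to 0.23).

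FEN1, the flap nuclease that trims Okazaki fragments, showed how far a single array could set a difference. Its brighter probe set read 10.08, 10.31 and 10.16 with empty vector and 10.19, 11.02 and 10.12 with SH3GL2, and the dimmer read 8.28, 8.75 and 8.47 against 8.57, 9.39 and 8.40. On both, SH3GL2 replicate 2 was far above all other arrays and the rest overlapped. The differences were 0.26 (95% interval -0.12 to 0.64) and 0.29 (-0.15 to 0.72), with limma adjusted p = 0.551 and 0.568. LIG1, which seals the fragments, and RNASEH2A, which removes RNA from DNA, both differed by 0.10. RPA1, RPA2 and RPA3, the subunits that coat single-stranded DNA, ranged from -0.01 to 0.14 on 4 probe sets, with RPA2 highest.

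Nucleotide supply was the role with the most negative values, 7 of 10 probe sets, with a median of -0.04 and none past the test. RRM2, the regulated subunit of ribonucleotide reductase, read 12.38, 12.39 and 12.64 with empty vector and 12.36, 12.32 and 12.31 with SH3GL2 on 1 probe set. The groups were apart by 0.02, and the difference was -0.14 (limma adjusted p = 0.313), the 1 member value lower at the unadjusted threshold. The other RRM2 probe set gave -0.04, with SH3GL2 replicate 2 the highest of all 6 arrays. RRM1, the large subunit, gave -0.08 and -0.10. TYMS and TK1, which make thymidylate, gave -0.03 on the bright TYMS probe set and -0.01, and the second TYMS probe set was under the reference median. DUT, which clears dUTP, had 3 positive differences of 0.04 to 0.10.

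G1/S control was mixed, with 8 of 13 probe sets positive, a median of 0.07 and none past the test. CCNE1, the cyclin E1 that activates CDK2, had the highest value. It read 7.80, 7.74 and 7.37 with empty vector and 7.89, 8.11 and 7.90 with SH3GL2, a difference of 0.33 (95% interval 0.08 to 0.58, limma adjusted p = 0.150). The groups were separate, and empty vector replicate 3 lay well under the rest. CCNE2, the second E-type cyclin, differed by 0.07 on its brighter probe set, where the empty vector SD of 0.38 was the widest of all members. CDK4, the partner of D-type cyclins, read 11.16, 11.10 and 11.18, then 11.22, 11.36 and 11.33, a difference of 0.16 (adjusted p = 0.168, limma) with separate groups. CDK2 was lowest, at 10.10, 10.19 and 10.05 with empty vector and 9.96, 10.05 and 9.92 with SH3GL2 on its bright probe set, a difference of -0.14 (limma adjusted p = 0.329). Its groups touched at 10.05. CCND1 gave 0.07 and 0.11, E2F1 gave 0.11 and 0.13, and E2F3 gave -0.08 and -0.06.

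CHAF1A and CHAF1B, which place histones on new DNA, had 4 positive differences between 0.09 and 0.16. USP1, which removes ubiquitin from PCNA, had both of its differences below 0, at -0.16 (limma adjusted p = 0.354) and -0.06.

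SH3GL2 replicate 2 stood above the other arrays over these genes. It was the highest of its group, with no tie, at 54 of 75 member probe sets (72%), against 35.1% of all probe sets. The median deviation of the members from the empty vector mean was 0.03, 0.18 and 0.06 on SH3GL2 replicates 1, 2 and 3, and -0.04, 0.03 and 0.02 on the empty vector arrays. For the helicase alone it was 0.065, 0.365 and 0.115 on the SH3GL2 arrays. Without SH3GL2 replicate 2 the median difference of the members was 0.04 in place of 0.10, with 49 of 75 positive, and that of the helicase was 0.08 in place of 0.19, with 13 of 14 positive. The sign of both medians was the same under every scaling tried.

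**Figure D3:**
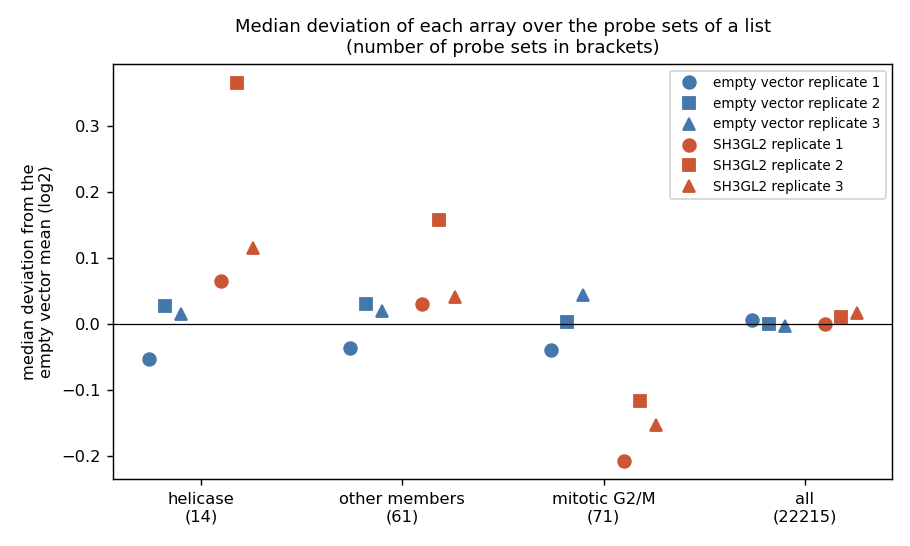
Median deviation from the empty vector mean (vertical axis, log2) of each array over the probe sets of the helicase, the other members, the mitotic genes and the whole array. SH3GL2 replicate 2 is highest over both sets of members, all 3 SH3GL2 arrays lie under the empty vector arrays over the mitotic genes, and all arrays lie near 0 over all probe sets.

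A wider list of G1/S and replication genes that are not members named 87 genes, of which 73 were measured on 113 probe sets. By limma 3 of these (2.65%) rose, against 1.99% of all probe sets, and 2 (1.77%) fell, against 2.18%. At an unadjusted limma p under 0.05, 14 (12.4%) were higher, against 8.24% of all, and 12 (10.6%) lower, against 7.62%. The groups did not overlap at 20 (17.7%) with SH3GL2 above, against 10.5%, and at 11 (9.73%) below, against 8.97%. The median was 0.01, with 57 positive. By role, medians ran from -0.11 (G1/S cyclins, kinases and CDC25A) to 0.085 (polymerase and fork genes). TFDP2, a DNA-binding partner of E2F factors, rose on both of its probe sets. The brighter read 9.11, 9.01 and 9.18 with empty vector and 9.58, 9.66 and 9.72 with SH3GL2, a rise of 0.55 (limma adjusted p = 0.000483), and the dimmer rose by 0.52 (adjusted p = 0.00288, limma). GMPS, a GMP synthase, rose by 0.23 (limma adjusted p = 0.0221), and lost that call when empty vector replicate 2 or 3 or SH3GL2 replicate 3 was left out, at an adjusted p of up to 0.129.

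CCND2, cyclin D2, fell on 1 of 3 probe sets. That probe set read 7.86, 7.84 and 7.94 with empty vector and 7.26, 7.31 and 7.21 with SH3GL2, a difference of -0.62 (limma adjusted p = 0.000487). The other CCND2 probe sets, both under the 95th percentile of the reference genes, gave -0.31 (adjusted p = 0.118, limma) and -0.13. CDKN1C, the CDK inhibitor p57, fell on 1 of 5 probe sets, from 6.82, 6.91 and 6.90 to 6.0, 6.26 and 6.0, a difference of -0.79 (limma adjusted p = 0.000396). All 5 CDKN1C probe sets had group means under the 95th percentile of the reference genes, and the other 4 ranged from -0.32 to 0.07. The calls of TFDP2, CCND2 and CDKN1C held with any 1 array left out. By analysis of variance both TFDP2 probe sets (adjusted p = 0.0882 and 0.114) and CDKN1C (0.0882) lost the call, while CCND2 kept it (0.0467). The dimmer TFDP2 probe set also lost it with low signals floored (limma adjusted p = 0.0568).

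Genes of the later G2 and M phases, 45 of 46 named and on 71 probe sets, are given beside the replication genes because both groups mark cycling cells. By limma 12 of these probe sets (16.9%) fell, against 2.18% of all probe sets, and 0 rose, against 1.99%. At an unadjusted p under 0.05, 32 (45.1%) were lower, against 7.62% of all, and 0 were higher, against 8.24%. The groups did not overlap, with SH3GL2 below, at 33 (46.5%), against 8.97% of all, and at 0 with SH3GL2 above, against 10.5%. Analysis of variance, with its low recovery, called 0 in either direction. The median difference was -0.16, with 2 positive. CDK1, the mitotic kinase, fell by 0.27 and 0.30 on 2 of its 3 probe sets (limma adjusted p = 0.0122 and 0.0234), and the third, at -0.28, did not pass (adjusted p = 0.0669). CEP55 of cytokinesis fell by 0.31, CCNB2, cyclin B2, by 0.24, and MKI67, the Ki-67 antigen, by 0.27 on 1 of 4 probe sets. Leaving out empty vector replicate 2 or 3 brought the 12 to 2 and 1, and leaving out SH3GL2 replicate 1 or 3 brought them to 7 and 1. The median was between -0.17 and -0.14 with any 1 array left out. The difference between the replication and mitotic lists was not tested.

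**Figure D4:**
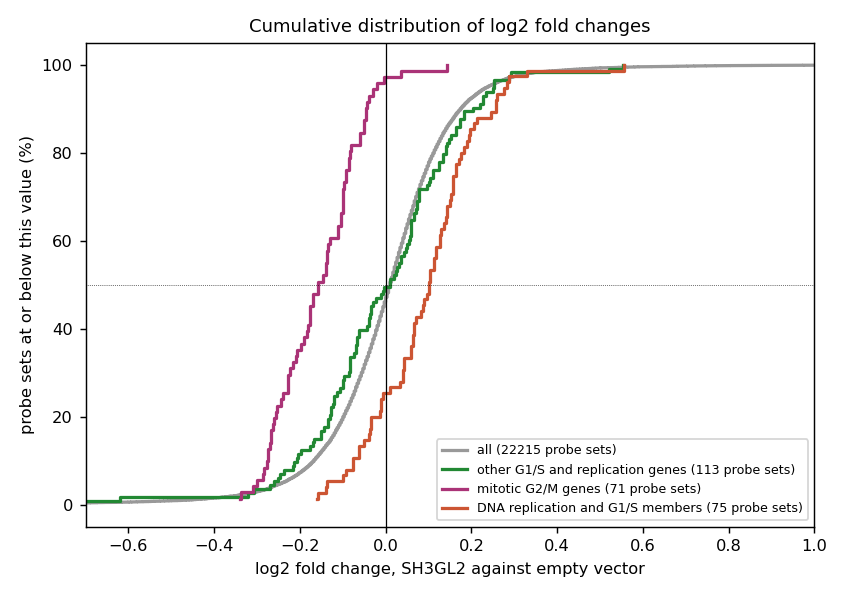
Cumulative share of probe sets (vertical axis, %) at or under each log2 fold change (horizontal axis, SH3GL2 against empty vector, drawn from -0.7 to 1.0) for the members, the wider list, the mitotic genes and the whole array. The curve of the members lies to the right of the whole array (median 0.10 against 0.01), that of the wider list runs close to it, and that of the mitotic genes lies to the left (median -0.16).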

How the data were processed

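Total RNA from 6 samples of SUM-159 cells (3 per group) was labelled with biotin and hybridised to Affymetrix GeneChip human genome arrays, scanned with GCOS software. The authors deposited 1 table of log2 values, 22277 probe sets by 6 arrays. MAS5 is named in the submitters' processing notes, without a version. The base of the log was read from the range of the values, and any scaling between arrays is not given in the sources used here.

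The values were used as deposited. After removal of 62 control probe sets, 22215 were tested with limma (lmFit, eBayes with an intensity trend), SH3GL2 against empty vector, and p-values were adjusted by the Benjamini-Hochberg method, with a threshold of 0.05. An exact permutation test with 3 against 3 arrays cannot go under p = 0.1. Symbols were from the platform annotation: 19064 probe sets had 1 symbol, 1043 several and 2108 none, and no gene was named from a probe set with several. The alternatives were quantile normalization, centring on array medians, 16 added before log2, a floor at the reference median, the brighter probe sets only, eBayes without a trend or with a robust prior, one-way analysis of variance (a test named in the study's statistics), the replicate number as a block, an adjusted p under 0.01, 1 probe set per gene, and leaving out each array.

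The members and gene lists were chosen with earlier results of these data known. Members with an adjusted p under 0.05 were given on every array, the others by range or where highest or lowest in their role. At most 8 genes of the wider list and 4 mitotic genes with the lowest adjusted p were named. Other members shown per array were picked for description after their values were seen. The fit was tested on simulated data. There limma recovered 48% of 1.2-fold and 100% of 1.5-fold changes, and analysis of variance recovered 4% and 6%. Each simulated probe set had the spread typical of its signal level, without further differences in spread between probe sets. These rates may therefore not hold for the real arrays. R 4.3.3, limma 3.58.1, Python 3.11.15 and matplotlib 3.10.9 were used.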

Additional observations from a re-analysis of the deposited data

How the results depend on the processing

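The 2 members that rose became 1 after centring on array medians. The count was 3 when dim probe sets were dropped, which added POLD3 (limma adjusted p = 0.0360). It was 0 with low signals floored, without the intensity trend, by analysis of variance or at an adjusted p under 0.01. Under the floor the differences of MCM2 and RFC4 were unchanged at 0.56 and 0.28, since their own signals lay above it. Only their adjusted p moved, which also rests on the other probe sets through the shared variance model and the adjustment. The cause of these changes in count was not tested. Leaving out 1 array gave 0 to 2, with 0 without empty vector replicate 2 and 1 without empty vector replicate 1 or SH3GL2 replicate 3. Without SH3GL2 replicate 1 the 2 calls were MCM2 and MCM5. The count of members that fell was 0 under every alternative. With the replicate number as a replicate block the count of members that rose was 3, adding MCM6 (adjusted p = 0.0372, limma). Over all probe sets the block called 506 higher and 573 lower. Residual correlations were -0.01, 0.13 and 0.15 for arrays sharing a number, against -0.16 to 0.02 for arrays with different numbers. For 4 of the 6 arrays the closest array of the other group had the same number. The main fit did not use the numbers as pairs, and whether they mark pairs was not tested further.

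Over all probe sets, 441 rose and 485 fell, against 132 and 160 with low signals floored, 270 and 327 without the trend, 33 and 44 by analysis of variance, and 191 and 256 at an adjusted p under 0.01. Leaving out 1 array gave 184 to 376 higher and 296 to 437 lower. The 12 mitotic probe sets that fell became 3 with low signals floored, 0 without the trend, by analysis of variance or at an adjusted p under 0.01, and 1 to 15 with 1 array left out. The 12 named probe sets past the test kept their sign under every alternative. Alternatives that changed only the test or its threshold left the differences as they were, so the sign could not change there. Of these probe sets, only that of CCND2 also kept its call under every alternative. With 3 arrays per group, small differences could be missed, and in the simulated data limma recovered 48% of 1.2-fold changes. The intervals given are not adjusted over all probe sets. Among the member probe sets that did not pass, 10 had an interval wholly above 0 and 1 wholly below it. FEN1 and CCNE2 are bounded least.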
